A study of Mus musculus with 12 samples.

Results

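Stat2, Stat3, Stat4, Stat5a, Stat5b and Stat6, members of the Stat family of transcription factors, were examined in the cerebral cortex of mice lacking or keeping the histone methyltransferase NSD1 in the neural lineage. The 6 genes were taken by symbol from the 34193 genes of the deposited table. For testing, a gene needed 10 or more normalised reads averaged across libraries, a filter that 14397 genes and all 6 Stat genes passed. The genes were chosen by their normalised reads in cKO and control, in which Stat6 and Stat4 stood out. Their differences between genotypes are therefore described here without a test.

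The study sequenced total RNA, depleted of ribosomal RNA, from mice aged 8 weeks. All animals of both groups carried loxP-flanked Nsd1 alleles (Nsd1 flx/flx). The conditional knockouts (cKO) were Nestin-cre +/-, a transgene whose promoter is active in neural progenitors, and the controls were Nestin-cre -/-. There were 6 libraries per genotype, named biological replicates. Throughout, ± gives the SD across the 6 libraries of a genotype, and a log2 ratio is cKO over control on the log2(value + 1) scale, which understates the change of low genes. A control with Nestin-cre and unflanked Nsd1 was not analysed here, so the presence of the transgene and the loss of Nsd1 cannot be told apart.

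Reads assigned to genes numbered 10510053 to 21096808 per control library and 14583163 to 26975576 per cKO library. Columns 1 to 3 of each genotype held reads of Y-linked genes and columns 4 to 6 did not, apart from a summed 3.09 normalised reads in cKO library 6. This disagreed with the sex label of the same number in 8 of 12 columns, so columns were tied to a genotype only. Control libraries 4 and 5 stood apart with 14.2% and 11.5% of mitochondrial ribosomal RNA, against 1.46% to 6.00% in the others. Nsd1, the targeted gene, had 4235 ± 850 normalised reads in controls against 3251 ± 299 in cKO, with ranges that overlapped (limma adjusted p = 0.383). Reads from outside the deleted part of Nsd1 count toward that value. Of the markers of cortical excitatory neurons, Slc17a7, a vesicular glutamate transporter, averaged 27682 ± 4788 normalised reads in controls and 28507 ± 1423 in cKO. Camk2a, a kinase of excitatory synapses, averaged 74145 ± 11338 and 65809 ± 7128.

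Stat proteins carry signals from cytokine receptors to the nucleus. A ligand brings receptor chains together, the attached Janus kinases (JAKs) phosphorylate the receptor and then the Stat protein, and paired Stat proteins enter the nucleus and bind DNA. Each member serves its own receptors: Stat6 those of interleukins 4 and 13, Stat4 that of interleukin 12, Stat2 the type I interferon receptor, Stat3 the receptors that share gp130, and Stat5a and Stat5b those of growth hormone, prolactin and several haematopoietic cytokines. In brain, Stat3 is known for its part in astrocyte development and reactivity, and Stat6 for the response of microglia and macrophages to interleukin 4.

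Stat6 ranged in the controls from 174.7 to 255.8 normalised reads with a median of 209.6, and in the cKO from 426.5 to 546.5 with a median of 488.5. Every cKO library lay far above every control, with a wide gap between the groups. The means were 212 ± 32.2 and 494 ± 42.2, a ratio of 2.33 and a log2 ratio of 1.23 (SE 0.09). The authors' deposited table puts the log2 fold change of Stat6 at 1.22 (SE 0.0958). These values rest on 93 to 311 reads per control library and 410 to 805 per cKO library. Of all tested genes, 47.6% had a lower mean than Stat6. The highest values of both groups belonged to libraries 1 and 2, which hold Y-linked reads. In bulk tissue, more cells of a type and more RNA per cell cannot be told apart.

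Stat4 was far scarcer. It ranged from 10.02 to 27.3 normalised reads in the controls, with a median of 18.9, and from 31.7 to 58.7 in the cKO, with a median of 42.7. The groups again did not overlap, although the highest control (library 2) and the lowest cKO (library 3) lay close together. The means were 18.7 ± 6.10 and 43.8 ± 9.20, a ratio of 2.34 and a log2 ratio of 1.22 (SE 0.22). Only 8 to 31 reads per control library and 33 to 89 per cKO library stand behind them, above the 3 reads taken as the floor (1.98 to 5.64 normalised reads). The spread between libraries was wider than for Stat6, with a coefficient of variation of 32.6% against 15.2% in the controls. The authors' deposited table puts the log2 fold change of Stat4 at 1.23 (SE 0.253).

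Complete separation in the upward direction was thus found for 2 of the 6 Stat genes, and for 0.813% of all tested genes. Groups without overlap in either direction made up 1.01%. As the genes were singled out for this difference, nothing is read from the count. By log2 ratio, Stat6 and Stat4 held ranks 48 and 49 of 14397.

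**Figure D1:**
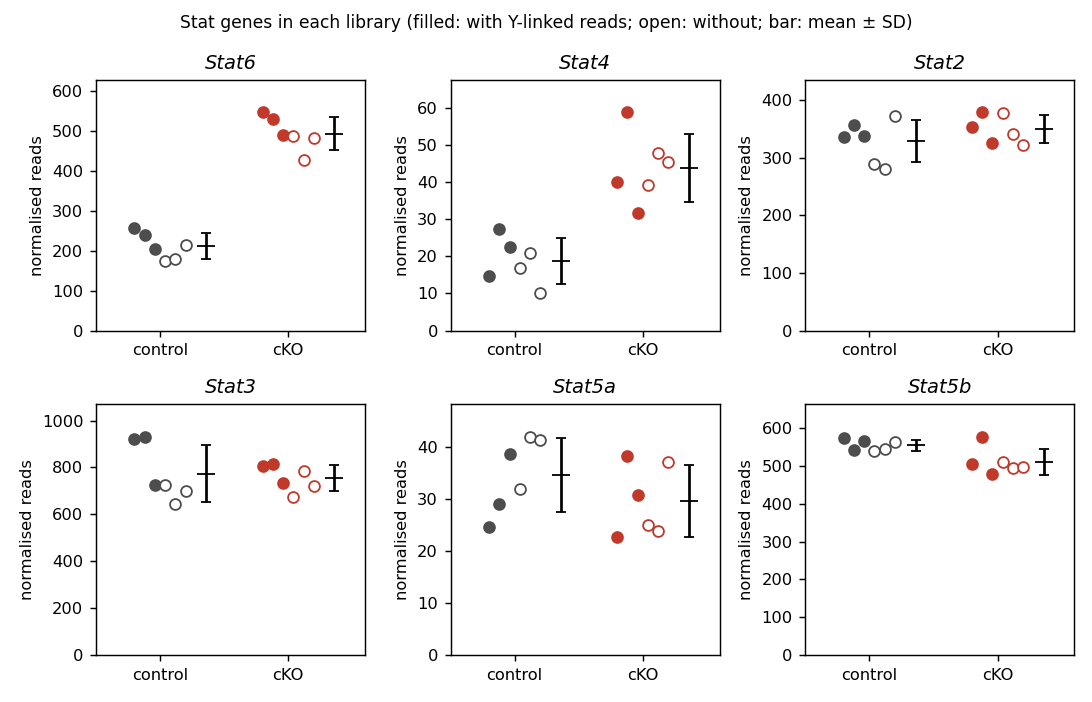
Normalised reads of the 6 Stat genes (y axes from 0, a scale per gene) in each of 12 libraries, controls in grey and cKO in red, filled where Y-linked reads were present. Bars give mean ± SD (n = 6). Stat6 and Stat4 are higher in all 6 cKO libraries than in any control, and the groups of the other 4 genes overlap.

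The promoters of Stat6 and Stat4, the members that were higher in the cKO, are shown here because the study links NSD1 to DNA methylation, outside CG dinucleotides in particular, and promoters differ widely in how many CG they hold. They run from 250 bases before to 50 bases after a RefSeq transcription start (assembly GRCm38.p6, printed on the gene's strand, CG in capitals), and the CG-rich first promoter of Stat5b is given for contrast. RefSeq lists 2 starts for Stat4 and 2 for Stat5b.

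Stat6: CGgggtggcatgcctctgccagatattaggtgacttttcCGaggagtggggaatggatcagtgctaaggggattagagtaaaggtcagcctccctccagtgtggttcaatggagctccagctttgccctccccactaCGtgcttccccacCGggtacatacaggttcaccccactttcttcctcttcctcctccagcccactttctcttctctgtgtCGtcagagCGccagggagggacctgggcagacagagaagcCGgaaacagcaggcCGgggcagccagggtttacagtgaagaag

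Stat4, first start: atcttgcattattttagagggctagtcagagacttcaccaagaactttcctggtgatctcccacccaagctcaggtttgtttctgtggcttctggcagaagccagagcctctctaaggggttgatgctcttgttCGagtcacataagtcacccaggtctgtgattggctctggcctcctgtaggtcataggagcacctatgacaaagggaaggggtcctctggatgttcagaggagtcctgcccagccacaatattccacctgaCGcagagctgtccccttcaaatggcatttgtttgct

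Stat4, second start: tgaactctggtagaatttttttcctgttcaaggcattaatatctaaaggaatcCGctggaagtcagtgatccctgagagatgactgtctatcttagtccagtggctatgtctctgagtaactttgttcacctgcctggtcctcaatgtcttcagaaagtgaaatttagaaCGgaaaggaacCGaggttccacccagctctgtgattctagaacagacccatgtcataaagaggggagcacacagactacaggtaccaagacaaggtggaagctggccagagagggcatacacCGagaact

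Stat5b, first start: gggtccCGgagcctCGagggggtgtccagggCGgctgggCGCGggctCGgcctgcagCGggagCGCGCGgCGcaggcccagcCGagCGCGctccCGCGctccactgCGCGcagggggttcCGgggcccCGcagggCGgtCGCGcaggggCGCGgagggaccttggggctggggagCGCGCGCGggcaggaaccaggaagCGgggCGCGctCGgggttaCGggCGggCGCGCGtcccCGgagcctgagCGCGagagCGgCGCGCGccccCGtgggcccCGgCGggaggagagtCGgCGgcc

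Stat6 holds 8 CG in these 300 bases, and Stat4 holds 2 and 4 at its starts. The median over 12978 promoters of tested genes was 20, and 18.8%, 2.21% and 7.59% of them held fewer CG than Stat6 and than the first and second starts of Stat4. The promoters of the members that did not separate ran from CG-poor to CG-rich: 22 in Stat2, 15 in Stat3, 5 and 27 in Stat5a, and 50 and 7 in Stat5b. Against promoters of tested genes, a low CG count is therefore shared by Stat6 and Stat4. It is also found at a start of Stat5a and of Stat5b. Over all 32851 promoters the median was 7, so on that base the 8 CG of Stat6 are not low. Outside CG, methylation in neurons falls mostly on CA. Counting CA on both strands, Stat6 holds 40 and Stat4 48 and 42. The other members hold 18 to 49, the highest at a start of Stat5a. The median was 36 over promoters of tested genes and 41 over all promoters, so these counts do not set Stat6 and Stat4 apart. No methylation was measured in these libraries.

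Stat dimers are known to bind TTCNNNGAA, and Stat6 also the longer form with 4 bases between TTC and GAA. Both motifs read the same on either strand. Neither was found in the promoters of Stat6 or Stat4. Among the members, Stat2 alone held a match, TTCCCTAGAA, of the longer motif. The shorter motif occurs in 8.30% and the longer in 6.95% of all 32851 promoters in the table. A match is a description of letters and not of binding.

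The other members showed overlapping groups. Stat2, which acts in the interferon response, ranged from 281.0 to 373.1 normalised reads in the controls (median 337.2) and from 323.0 to 378.7 in the cKO (median 347.7). The log2 ratio was 0.09 (SE 0.09). Stat3 ranged from 644.5 to 930.6 in the controls (median 723.4) and from 673.8 to 813.5 in the cKO (median 760.4), and every cKO library lay inside the control range. Its log2 ratio was -0.02 (SE 0.09).

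Stat5b, which serves growth hormone signalling, was the steadiest member in the controls, with a coefficient of variation of 2.68%. It ranged from 539.3 to 574.2 normalised reads there (median 555.0) and from 480.1 to 577.9 in the cKO (median 501.4). Of 6 cKO libraries, 5 lay below the lowest control, and cKO library 2, the highest of all 12, lay above every control. The log2 ratio was -0.12 (SE 0.07). Stat5a ranged from 24.7 to 41.9 normalised reads in the controls (median 35.3) and from 22.7 to 38.3 in the cKO (median 27.8), with a log2 ratio of -0.22 (SE 0.19). Stat5a and Stat5b are near-identical paralogs, so reads may have been divided between them. The 3′ ends of Stat5a and Stat3 overlap by 72 bases on opposite strands in GENCODE, and use of the strand in counting is not stated by any source used here.

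Compared per kilobase of exon sequence, the members fell into abundant and scarce ones. In the controls, Stat5b had 100 ± 2.68 normalised reads per kb, Stat3 81.2 ± 12.7, Stat2 55.6 ± 6.21 and Stat6 48.1 ± 7.32. Stat5a and Stat4 followed at 4.85 ± 1.00 and 4.84 ± 1.58. The ranges of Stat5b and Stat3, of Stat2 and Stat6, and of Stat5a and Stat4 overlapped over the control libraries. Compared within each control library, Stat5b lay above Stat3 in 6 of 6, Stat2 above Stat6 in 5 of 6 and Stat5a above Stat4 in 3 of 6, so the order of Stat5a and Stat4 was not settled by these libraries.

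In the cKO, Stat6 rose in this order from the fourth to the first place, at 112 ± 9.59 normalised reads per kb. Stat5b came next at 92.3 ± 6.18, and although the ranges overlapped, Stat6 lay above it in 6 of 6 cKO libraries. Stat4 reached 11.3 ± 2.38, clear of Stat5a at 4.15 ± 0.96. Per kb of the longest transcript instead of all exons, Stat3 (128 ± 20.0) stood above Stat5b (107 ± 2.85) in the controls. On that scale Stat6 again had the highest cKO mean, at 131 ± 11.2, followed by Stat3 at 125 ± 9.15. The cKO ranges of Stat6 (113 to 145) and Stat3 (112 to 135) overlapped widely.

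**Figure D2:**
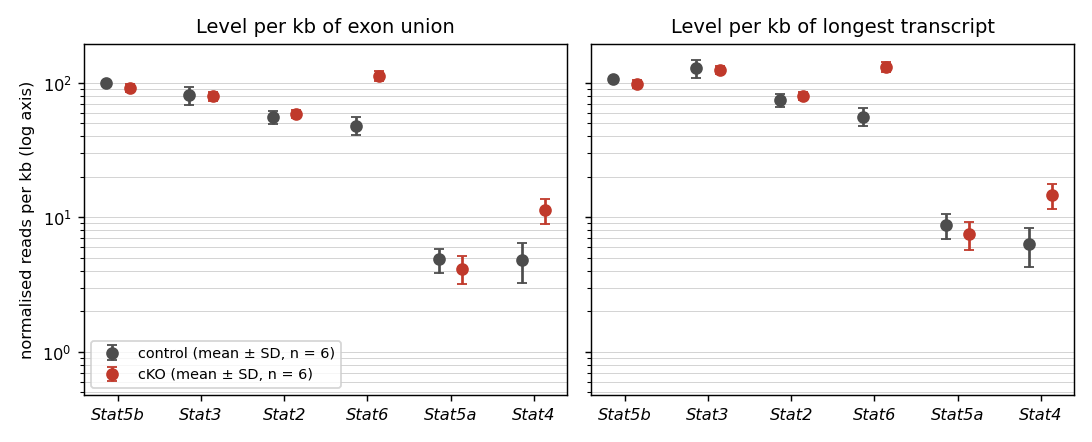
Normalised reads per kb (log axis, mean ± SD, n = 6) of the 6 Stat genes in controls (grey) and cKO (red), per kb of all exons on the left and of the longest transcript on the right. Stat6 moves from 48.1 to 112 per kb of exons and has the highest cKO mean on both scales. Its cKO range overlaps that of the next member, Stat5b on the left and Stat3 on the right. Stat5b and Stat3 change places between the scales.

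The genotype difference was then set out within each set of libraries, 3 cKO against 3 controls with Y-linked reads and 3 against 3 without. For Stat6 the log2 ratios were 1.17 with Y-linked reads and 1.29 without, and for Stat4 0.98 and 1.46. Stat5b gave -0.11 and -0.13. Stat2 gave 0.04 and 0.15, and Stat3 and Stat5a gave -0.12 and 0.07, and -0.02 and -0.43. The difference between the sets was called for 0 of 6 members by limma, edgeR or DESeq2, and 0 of 6 had an unadjusted p under 0.05. Over all tested genes limma called 0%, and 8.77% had an unadjusted p under 0.05. The largest of these differences, that of Stat4, was -0.48 (SE 0.44, limma adjusted p = 0.717), and -1.05 without control libraries 4 and 5. For Stat6 it was -0.12 (SE 0.18, limma adjusted p = 0.819). With array weights, limma called Stat3 (-0.41, adjusted p = 0.00873). The share of all tested genes called with these weights is not given here, so nothing particular to Stat3 is read from that call.

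The sets themselves were also compared, across both genotypes. Stat6 averaged 378 normalised reads in the libraries with Y-linked reads and 327 in those without (log2 difference 0.23, SE 0.09, limma adjusted p = 0.384). Stat3 averaged 822 and 708 (log2 difference 0.21, limma adjusted p = 0.384). Both had an unadjusted p under 0.05, at 0.0194 and 0.0264, as did 11.7% of all tested genes. limma, edgeR and DESeq2 called 0 of 6 members, and limma called 0.0764% of all tested genes. The set with fewer Stat6 and Stat3 reads contains the control libraries 4 and 5 that were rich in mitochondrial ribosomal RNA, and without them the log2 differences were 0.15 and 0.17.

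**Figure D3:**
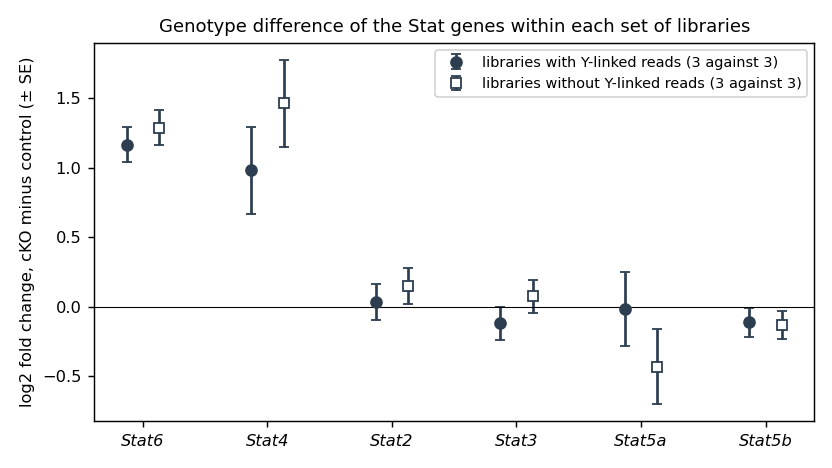
Log2 ratio of cKO over control of each Stat gene within the libraries with (filled circles) and without (open squares) Y-linked reads, 3 against 3 in each set, with SE from limma. Stat6 and Stat4 lie between 0.98 and 1.46 in both sets, and the others between -0.43 and 0.15.

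The remaining genes of the JAK-STAT pathway were then examined, to see which parts of the route differed beside the Stat genes. Of 131 listed genes other than the 6 members, 84 were tested. Only Serpina3n was higher in the cKO and only Crlf2 lower (limma adjusted p under 0.05), against 0.834% called among all tested genes, 0.764% higher and 0.0695% lower. The lists were drawn up with earlier results of these data known, so nothing about the pathway is read from this count. DESeq2 called 4, adding Il6st and Csf2ra. The share of all tested genes that DESeq2 called is not given here, so nothing about the pathway is read from the added calls. An unadjusted p under 0.05 was found for 9 of the 84 genes and for 9.73% of all tested genes, against which the counts of such genes in each list are to be read. The median log2 ratio of the 84 genes was 0.00, as over all tested genes, and 42 of 84 lay above 0.

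Among ligands, 5 of 25 passed the filter, none was called by limma, and 1 (Il15) had an unadjusted p under 0.05. Il4 and Il13, the ligands upstream of Stat6, were near or at 0: Il13 was listed at 0 in all 12 libraries and Il4 in all 6 controls, with a mean of 0.40 normalised reads in the cKO. Il12a, a subunit of the Stat4 ligand interleukin 12, stood at 26.9 ± 10.1 and 22.9 ± 4.47 normalised reads, while its partner Il12b was below 1 on average in both groups. Ifnb1 was listed at 0 throughout. Epo, erythropoietin, was the sole ligand with a mean above 50, at 4213 ± 618 and 4150 ± 428 normalised reads, with a log2 ratio of -0.01. Whether these reads come from Epo transcripts was not tested.

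The receptor chains that feed Stat6 did not separate. Il4ra, the chain common to the interleukin 4 and 13 receptors, stood at 105 ± 18.8 and 114 ± 18.4 normalised reads. Il13ra1, its partner for interleukin 13, had a log2 ratio of 0.20 (SE 0.14, limma adjusted p = 0.601). Of the Stat4 receptors, Il12rb1 stood at 26.2 ± 11.4 and 25.3 ± 11.6, and Il12rb2 (means of 1.42 and 3.42) and Il23r (0.69 and 1.02) fell below the filter. No gene of the Stat6, Stat4 or Stat2 receptor lists was called, nor had any an unadjusted p under 0.05. Ifnar1, a type I interferon receptor chain, had a log2 ratio of 0.10 (SE 0.08).

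Among receptors of the Stat3 route, 0 of 10 tested genes were called and 1 had an unadjusted p under 0.05. This was Il6st, the gp130 chain, which ranged from 1419 to 1774 normalised reads in controls (median 1560) and from 1827 to 2155 in cKO (median 1912). The groups did not overlap, but the log2 ratio of 0.31 (SE 0.08) missed the limma threshold (adjusted p = 0.112). DESeq2 called it (adjusted p = 0.0149), and over all alternatives the adjusted p ran from 0.0149 to 0.347.

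Of the 9 tested receptors of the Stat5 route, 1 was called. Crlf2, the receptor chain for thymic stromal lymphopoietin, fell from 251 ± 38.0 normalised reads in controls to 135 ± 28.6 in cKO (log2 ratio -0.90, SE 0.14, limma adjusted p = 0.00205). It lay below every control in 6 of 6 cKO libraries. It remained called under every alternative run.

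None of the 4 JAK genes was called, and 1 had an unadjusted p under 0.05. This was Jak1, which works with many of these receptors and had the largest difference, from 3132 ± 504 to 3574 ± 252 normalised reads (log2 ratio 0.20, limma adjusted p = 0.506), with overlapping ranges. Among 18 inhibitors, none was called and 2 had an unadjusted p under 0.05. Socs3, a feedback inhibitor of the gp130 route, had the largest of those with a mean above 50, from 53.6 ± 12.5 to 69.6 ± 7.15 (log2 ratio 0.39, limma adjusted p = 0.457). Among 8 partners and coactivators, none was called by limma, nor had any an unadjusted p under 0.05. Ndufa13, a mitochondrial protein also known to bind Stat3, had a log2 ratio of -0.13.

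**Figure D4:**
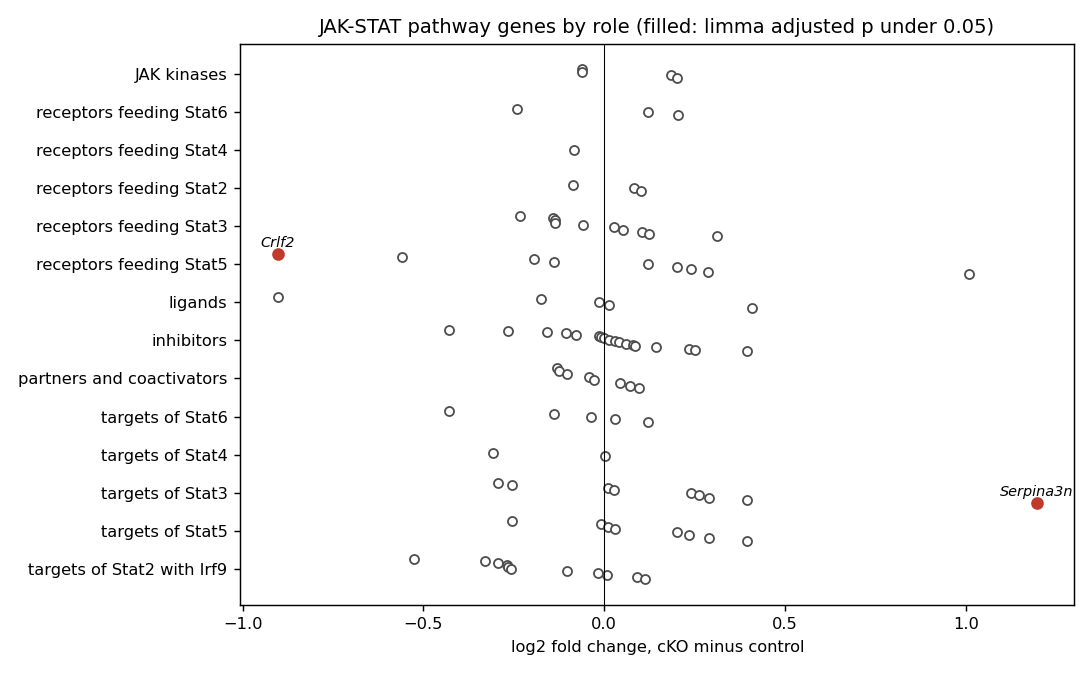
Log2 ratio of cKO over control of every tested pathway gene (1 circle each), in rows by role. Filled red circles mark the genes called by limma, Crlf2 at -0.90 and Serpina3n at 1.20. The rows for Stat6 and Stat4 receptors and targets hold no called gene.

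Known targets of each Stat were counted next. Of the 5 tested targets of Stat6, none was called by limma or had an unadjusted p under 0.05, and the median log2 ratio was -0.04. Il4ra is itself such a target. Mrc1, the mannose receptor of alternatively activated macrophages, stood at 108 ± 26.2 and 104 ± 22.0 normalised reads. Of 6 targets of Stat4, 2 were tested, and none was called or had an unadjusted p under 0.05. Furin had a log2 ratio of 0.00 (SE 0.11), and Ifng, the cytokine of T helper 1 cells, was listed at 0 in all 12 libraries.

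Of the 9 tested targets of Stat3, 1 was called. Serpina3n, an acute-phase protease inhibitor also raised in reactive astrocytes, rose from 121 ± 25.4 normalised reads in controls to 277 ± 45.4 in cKO (log2 ratio 1.20, SE 0.13, limma adjusted p = 9.32e-05). It ranged from 83.9 to 153 in the controls and from 206 to 339 in the cKO, so the groups did not overlap. Its close paralogs lie beside it, and reads may have been split among them. The other 8 tested genes of the list were not called. Over all 9 the median log2 ratio was 0.24, with 7 above 0 and 2 with an unadjusted p under 0.05. Gfap, the astrocyte filament protein, stood at 2797 ± 888 and 3226 ± 645 (limma adjusted p = 0.620), and Socs3 is given above. Of 8 tested targets of Stat5 none was called by limma, and 2 had an unadjusted p under 0.05. The lists share genes: both of these were also counted among the inhibitors, and 1 of them, Socs3, among the targets of Stat3. Of 11 tested targets of Stat2 with Irf9 none was called and none had such a p, with a median log2 ratio of -0.26 and 3 of 11 above 0. Ifit3 had a log2 ratio of -0.26 (SE 0.18, limma adjusted p = 0.594).

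As Stat4 and Stat6 are widely used by immune cells, markers of those cells were set beside them. The 9 microglia markers summed to 5995 to 7528 normalised reads in control libraries and 6248 to 7615 in cKO libraries, and none was called. The 5 border macrophage markers summed to 134 to 231 and 137 to 234. The 10 markers of T and NK cells summed to 20.7 to 54.5 in the controls and 19.0 to 35.6 in the cKO, most of it Cd4, while Cd3e, Cd3d and Cd3g did not pass 2.37 in any library. For B and plasma cells the sums were 5.28 to 11.3 and 1.03 to 12.3. For neutrophils and monocytes they were 1.25 to 14.0 and 3.52 to 9.26, with Ly6g listed at 0. The ranges overlapped between genotypes in each of these lists.

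Markers of neurons, glia and vessels were counted in the same way. The median log2 ratio of such a list was lowest, at -0.14, for oligodendrocyte precursors and highest, at 0.13, for striatum. No tested marker in any list was called, where limma called 0.834% of all tested genes. Of the immune lists, 1 of 10 markers of T and NK cells was tested. For B and plasma cells and for neutrophils and monocytes 0 were tested, so those lists could not give a call.

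The Stat genes lie in 4 places of the mouse genome, and their neighbours were compared to see whether a difference extended along the chromosome. Gene order was taken from RefSeq (assembly GRCm38.p6), and coordinates are not printed because the submitters' notes name build mm9. Of the 24 nearest tested genes, 3 on each side of each place, limma called 0, as did edgeR and DESeq2, and 1 had an unadjusted p under 0.05. Of all tested genes limma called 0.834%, and 9.73% had such a p. Nothing particular to the neighbours is read from these counts. Their median log2 ratio was 0.00, with 12 of 24 above 0, and their range was -0.25 to 0.41, below Stat4 at 1.22 and Stat6 at 1.23.

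The gene with the smallest unadjusted p was Nab2, a repressor of early growth response factors, whose 3′ end overlaps that of Stat6 by 40 bases on the opposite strand in GENCODE. It had 643 ± 142 normalised reads in controls and 846 ± 123 in cKO (log2 ratio 0.41, SE 0.14, limma adjusted p = 0.378), with overlapping ranges. Its log2 ratios were 0.14 in the libraries with Y-linked reads and 0.68 in those without, where Stat6 had 1.17 and 1.29. On the other side of Stat6, Lrp1, a lipoprotein receptor, had a log2 ratio of -0.05 (SE 0.19).

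Finally, the genes whose level followed Stat6 and Stat4 most closely over the 12 libraries were looked up among the 11433 genes averaging 50 or more normalised reads. The libraries fall into genotypes that differ in Stat6 and Stat4, so the coefficients mostly reflect that difference and are given as a measure of likeness, without a test. For Stat6 they were Esam, an adhesion molecule of endothelial junctions (r = 0.98), Serpina3n (r = 0.97) and Kank4 (r = 0.96). Esam ranged from 186 to 243 normalised reads in control libraries and from 446 to 593 in cKO libraries. After each library was set against the mean of its own genotype and set, Esam and Serpina3n had r = 0.60 and r = 0.62 with Stat6, and Kank4 had r = 0.05.

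For Stat4 the closest were Pappa2, a protease of insulin-like growth factor binding proteins (r = 0.95), Wnt2b, a Wnt ligand (r = 0.92), and Eps8l2, a regulator of actin (r = 0.91). Pappa2 ranged from 61.4 to 115 normalised reads in control libraries and from 141 to 199 in cKO libraries. Against the means of genotype and set, the coefficients with Stat4 were 0.77, 0.65 and 0.43. The closest 3 of Stat6 and of Stat4 held no gene in common, whereas the closest 10 of each had 5 in common.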

How the data were processed

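Libraries were made from total RNA with a directional kit after removal of ribosomal RNA, per the labels' protocols. Trim Galore, Bowtie, STAR, bedtools and build mm9 are named in the submitters' processing notes, without roles. The deposited signal holds 1 normalised count per gene and library, scaled with DESeq2 per the file headers. All (100%) were whole multiples of a step per library within 0.01 reads, and whole reads were recovered. The authors' deposited comparison gives a log2 fold change, a score (Wald statistic) and a p-value.

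The test was limma 3.58.1 (R 4.3.3) with an intensity trend, fitted two-sided to log2(value + 1) with a genotype term and one for Y-linked reads (above a summed 100) in place of sex, because columns could not be tied to samples. Genes with a mean of at least 10 shared 1 fit, and a call needed a p under 0.05 after Benjamini-Hochberg adjustment. The labels call the libraries biological replicates and name no animals, and p-values speak for the spread among these libraries. edgeR 4.0.16 and DESeq2 1.42.0 were run on recovered reads as alternatives, along with other pseudocounts, filters and scalings, array weights, no set term, a replicate block and leaving out each library. A fit without control libraries 4 and 5 was added after the data were seen. The fit was tested on simulated counts. The floor of 3 reads covers counting error only.

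Exon lengths came from GENCODE (GRCm38), by symbol, for 89.8% of tested genes and every Stat gene. Promoter sequences were found for all 6 members. The members and lists were chosen with earlier results of these data known. Named genes are the members, Nsd1, up to 2 called genes of each list (otherwise the largest difference with a mean of at least 50), the nearest neighbours of Stat6 and Stat4 and the 3 genes most like each. A gene of a list outside this rule was named to show its level. Some genes that this rule names are not reported here.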

Additional observations from a re-analysis of the deposited data

Results flagged for a closer look

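In groups of 6 libraries, a value was marked where its gap to the nearest other exceeded Dixon's critical share of the group's range, which chance does in about 5% of groups. Of 58 groups (29 named genes in 2 genotypes), 3 were marked. Stat5b was highest in cKO library 2, at 578 normalised reads, while the other 5 cKO libraries lay below every control. Pappa2, the gene most like Stat4, was highest among controls in library 2, at 115, the control in which Stat4 was also highest. Epo was lowest in cKO library 4, at 3306.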

How the results depend on the processing

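Over 24 alternatives the log2 ratio of Stat6 ran from 1.14 to 1.26, and over 23 that of Stat4 from 1.06 to 1.40, Stat4 not passing the filter at a mean of 50. Stat5b (-0.16 to -0.10) and Stat5a (-0.32 to -0.15, over 23) kept their sign, and Stat2 (-0.01 to 0.14) and Stat3 (-0.06 to 0.02) lay on both sides of 0. Without control libraries 4 and 5, Stat6 had 1.14 and Stat4 1.33. Among all tested genes 120 were called, 58 with the filter at 50, where fewer genes were tested, 96 without control libraries 4 and 5, and 97 to 123 with single libraries left out. Pathway calls numbered 4 with DESeq2 (Crlf2, Serpina3n, Csf2ra and Il6st) against 2, and 3 without cKO library 3, with array weights or with quantile normalisation. The shares of all tested genes called by DESeq2, with array weights or with quantile normalisation are not given here. With array weights, 1 member, Stat3, was called for the difference between the library sets (-0.41, limma adjusted p = 0.00873), and no other alternative called one. The share of all tested genes called for that difference with array weights is not given here, and the cause of the call was not tested. Per kb of the longest transcript, control levels were 74.9 for Stat2, 128 for Stat3, 8.74 for Stat5a, 107 for Stat5b and 56.1 for Stat6, as the lengths are shorter. Ranked by Spearman's rho, Serpina3n came first for Stat6, Esam ninth and Kank4 at 121, and Pappa2, Wnt2b and Eps8l2 led for Stat4.

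Each library was set against the mean of its own genotype and set. These deviations correlated between libraries of the same column number at 0.20, 0.46 and 0.48 for numbers 1 to 3. For numbers 4 to 6 they correlated at 0.05, -0.10 and 0.03. Control libraries matched the cKO library of their own number best for 3 of 6 numbers. How often chance gives such a count was not worked out, and the design names no pairs, so the samples share only a number. With a replicate block 118 genes were called, Stat6 and Stat4 had log2 ratios of 1.23 and 1.22, and the pathway calls were the same 2 genes. Depth limits Stat4 and Stat5a most, at 8 to 89 and 17 to 58 reads per library.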

Other observations

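Among cytokine receptors of the Stat5 route, 2 genes beside Crlf2, named after their values were seen, had an unadjusted p under 0.05 without passing the adjusted threshold. Csf2ra, the alpha chain of the receptor for granulocyte-macrophage colony-stimulating factor, ranged from 74.8 to 101 normalised reads in controls and from 43.9 to 71.2 in cKO, with means of 84.1 ± 9.80 and 57.0 ± 9.22. Its groups did not overlap, but its log2 ratio of -0.56 missed the limma threshold (adjusted p = 0.0613). Prlr, the prolactin receptor, stood at 13.1 ± 5.45 and 26.7 ± 10.4 (log2 ratio 1.01, limma adjusted p = 0.288), with ranges that overlapped. Il15, a ligand of that route, stood at 17.7 ± 7.49 and 9.24 ± 4.36 (log2 ratio -0.90, limma adjusted p = 0.457).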
